A study of Caenorhabditis elegans with 6 samples.

Results

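UNC-55 is the C. elegans nuclear receptor of the COUP-TF family. The regions described here are those listed for UNC-55::GFP on chromosome IV outside its pair of piRNA domains. A region of the combined list was a member when its midpoint lay on IV and outside both 4.5 to 7.0 Mb and 13.5 to 17.2 Mb of the WormBase WS220 genome. The combined list is empty from 10 to 11 Mb of IV, so members with midpoints there were taken from the list of replicate 1. This gave 901 members, 856 from the combined list and 45 from replicate 1, of 8881 regions in all. Position chose the members, and no width, rank or score was used, though earlier results of these data were known.

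Chromatin precipitated with an antibody to GFP was sequenced in 3 samples, and unprecipitated chromatin (input) in another 3. All of them came from hermaphrodites at the L2 larval stage of strain NC1639. This strain carries the integrated transgene wdIs49 on III (pttr39::UNC-55a::GFP with dpy-20+), listed with no outcross, and no sample lacks the transgene. Its labels place strong GFP in the GABAergic neurons of the ventral nerve cord and mention ectopic expression, so the bound chromatin need not come from motor neurons alone. The title of the series names another factor and stage, and the sample labels were followed. Each ChIP sample has a list of regions, 1 combined list covers the series, and the inputs have no list among the files used here. Nothing in the labels says that the replicates were separate cultures, so their spread may be technical.

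COUP-TF receptors bind DNA through a zinc-finger domain that reads short hormone-response half-sites. In C. elegans, UNC-55 is known for keeping the VD class of GABA motor neurons from rewiring their synapses as the DD class does, largely by repressing genes. Chromosome IV is known as the home of most piRNA genes, very short transcription units that are active in the germline and packed into a few broad domains among protein-coding genes. In the RefSeq gene table, on the later assembly WBcel235, 14714 of 15363 piRNA genes (95.8%) lie on IV. That table was used for chromosome names only, since its coordinates are on a different assembly, and no gene is named for a region and no sequence is shown.

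The 3 replicate lists held 6805, 4909 and 2803 regions in replicates 1, 2 and 3, and the combined list held 8836. Depth is unknown, because the lists give no read counts. Regions are ranked below within their own list by the score of the peak caller, rank 1 being the best.

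In every replicate list, IV outside the piRNA domains carried more UNC-55::GFP regions per Mb than the domains and fewer than the pooled other chromosomes. The density of each other chromosome alone was not compared. Replicate 1 had 57.8 regions per Mb outside the domains, against 36.0 inside them and 71.8 on the other chromosomes. Replicate 2 had 36.7 regions per Mb outside, against 23.9 inside and 52.6 on the other chromosomes. Replicate 3 had 13.0 outside, against 8.87 inside and 31.5 on the other chromosomes. The order of the 3 parts was thus the same in all replicates, while the levels fell with the length of the list. The difference averaged 12.9 ± 8.8 regions per Mb against the domains and -16.1 ± 2.2 against the other chromosomes (SD, n = 3, exact two-sided sign-flip permutation p = 0.25 for each). With 3 paired lists this sign-flip test cannot give a p below 0.25, so it cannot pass a threshold of 0.05. Adjusted over the 8 planned comparisons both p-values were 0.4 (Benjamini-Hochberg, exact permutation test).

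**Figure D1:**
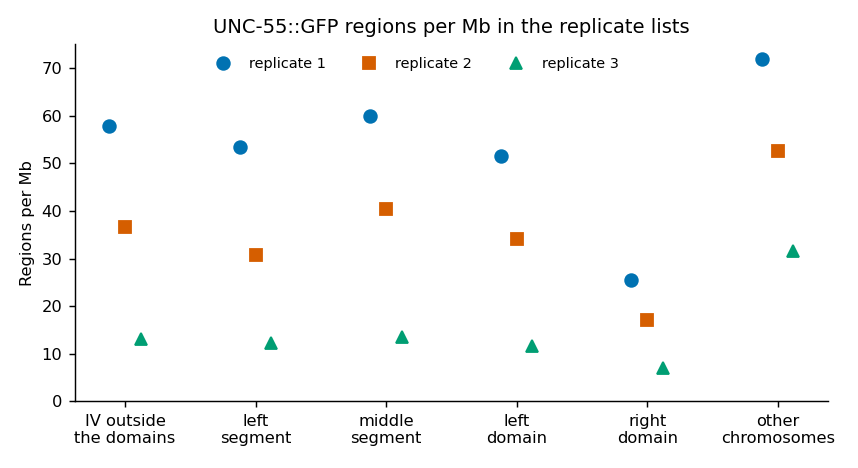
Regions per Mb of spanned sequence (y axis) in the lists of ChIP replicates 1, 2 and 3 (points) for IV outside the piRNA domains, its left and middle segments, each domain and all other chromosomes. The right domain is the lowest in each replicate, at 25.4, 17.0 and 7.03 regions per Mb, and the left domain lies close to the left segment.

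The gap between the domains and their surroundings was not the same on both sides of the chromosome. The left segment of 4.5 Mb, which runs up to the first domain, had 53.3, 30.7 and 12.2 regions per Mb in replicates 1, 2 and 3. The left domain had 51.6, 34.0 and 11.6 regions per Mb, and the middle segment of 6.5 Mb between the domains had 60.0, 40.3 and 13.5. The left segment and the left domain thus differed by less than 4 regions per Mb in each list, with the domain higher in replicate 2 alone. The right domain was far sparser, at 25.4, 17.0 and 7.03 regions per Mb. Beyond it, the last 0.268 Mb of the spanned chromosome held 26 members, with 78.3, 48.4 and 14.9 regions per Mb in replicates 1, 2 and 3.

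The members nearest the domains were of middling rank. At the 4.5 Mb edge, the last member outside lay at 4482742 to 4483185 with combined rank 4527, and the first region inside at 4510842 to 4511760 with rank 3565. At 7.0 Mb the member at 7011448 to 7012287 had rank 3362 and the region inside, 6992703 to 6993125, had rank 3741. The members nearest the 13.5 and 17.2 Mb edges had ranks 4198 and 3767, and the regions just inside had ranks 7271 and 5175. All 4 of these members overlapped a region of replicate 1 and none overlapped a region of replicate 3.

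Members were mostly narrow. Their median width was 423 bp, with quartiles of 307 and 640 bp, and together they covered 471 kb. Only 20 of the 901 reached 1500 bp, and 22 were under 50 bp. In the replicate lists the median width outside the domains was 421, 407 and 410 bp in replicates 1, 2 and 3, against 473, 463 and 462 bp inside the domains and 412, 417 and 402 bp on the other chromosomes. Regions outside the domains were narrower than those inside, with a mean difference of -53.3 ± 2.3 bp (SD, n = 3, exact permutation p = 0.25, the smallest possible), in 3 of 3 lists. Against the other chromosomes the difference was 2.33 ± 10.7 bp with mixed signs (exact permutation p = 1.0).

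One stretch of 2 Mb stood apart in width. From 10 to 12 Mb, a stretch singled out after its values were seen, the median width was 242, 242 and 300 bp in replicates 1, 2 and 3. On the rest of IV outside the domains it was 455, 437 and 440 bp. The stretch was narrower in each list, with a mean difference of -183 ± 38 bp (SD, n = 3). Since the stretch was chosen for its widths, this is a description and carries no test. Regions under 200 bp made up 39.3%, 36.7% and 15.2% of its regions in replicates 1, 2 and 3, against 1.86%, 0.317% and 0% on the rest, where 0 of 101 regions of replicate 3 allows a share of up to 2.97%. On the other chromosomes the shares were 5.72%, 2.21% and 0.50%. In replicate 3, regions under 200 bp were 7 of 21 from 10 to 11 Mb and 0 of 25 from 11 to 12 Mb. Without the stretch, the median width outside the domains differed from that of the other chromosomes by 33.7 bp on average, and from that of the domains by -22.0 bp.

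Widths were compared on both sides of whole-Mb marks only, so the change at the left end of the stretch was not located more finely. In replicate 1 the 10 regions right of the 10 Mb mark were 236 bp wide in the median, against 435 bp left of it. The medians were 224 bp right and 395 bp left of it in replicate 2, and 207 bp right and 448 bp left in replicate 3. Replicate 3 had only 7 regions from 9 to 10 Mb, so its 10 regions left of the mark reached back past 9 Mb. At the 9 Mb mark, used for contrast, they were 403 bp right and 508 bp left in replicate 1, 434 and 402 bp in replicate 2, and 417 and 393 bp in replicate 3. At the 12 Mb mark, the right end of the stretch, the medians were 289 bp inside it and 367 bp outside in replicate 1, 330 and 399 bp in replicate 2, and 408 and 445 bp in replicate 3, a smaller step. The left end of the stretch is also where the empty megabase of the combined list begins. In the megabase from 11 to 12 Mb, where the combined list has 75 regions, its median width was 262 bp.

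**Figure D2:**
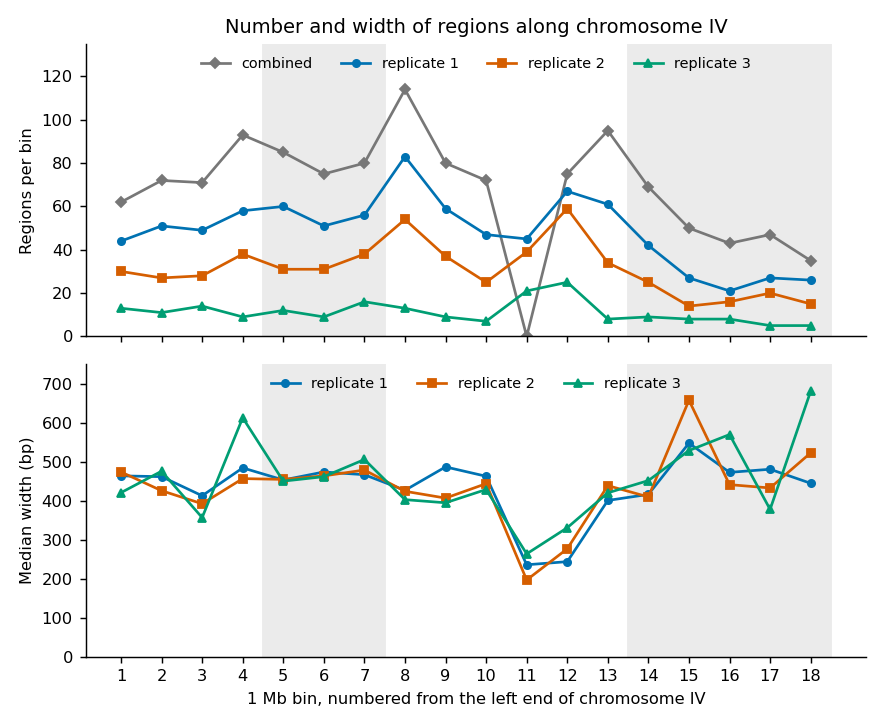
Number of regions (upper panel) and their median width in bp (lower panel) in the 1 Mb bins of chromosome IV, numbered from its left end, for the combined list (upper panel only) and the 3 ChIP replicates. Grey bins lie wholly or partly in a piRNA domain. In bin 11 the combined list drops to 0 while the replicates hold 45, 39 and 21 regions, and in bins 11 and 12 the median widths lie between 197 and 331 bp.

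The 45 members from 10 to 11 Mb included some of the best-ranked regions of the replicate lists. The member at 10089647 to 10090881, 1235 bp wide, had ranks 5, 5 and 2 in replicates 1, 2 and 3. Its start and its end each lay within 1 bp of one another in the 3 lists. The next by rank in replicate 1 were 10821322 to 10822289 (ranks 45, 95 and 138), 10341803 to 10342696 (ranks 71, 133 and 481), 10499856 to 10500342 (ranks 110, 144 and 222) and 10481625 to 10482044 (ranks 164, 717 and 901). These 5 were chosen as the best-ranked of replicate 1 in this megabase, and each was present in all 3 lists. Of the 45, 36 overlapped a region of replicate 2, 20 a region of replicate 3 and 19 both.

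Among the members from the combined list, the best-ranked was the widest of all, 6464 bp at 11694509 to 11700972, with combined rank 2 and ranks 1, 2 and 3 in replicates 1, 2 and 3. Its score is given as 0 in each list, a value shared by 8 regions of the combined list and by 2, 2 and 4 regions of replicates 1, 2 and 3, so its order among these is only that of their peak numbers. The same holds for rank 2 of the region at 10089647 in replicate 3. Both edges of the widest member agreed to 7 bp over the replicates. With the region at 10089647 it was 1 of 2 members with both edges within 10 bp, of 144 members found in all 3 replicates, against 0 of 55 such regions in the domains and 11 of 2423 on the other chromosomes. For those 144 the larger of the 2 edge spreads had a median of 92 bp, against 112 bp in the domains and 132 bp on the other chromosomes. Both sharp-edged members lay in the 10 to 12 Mb stretch. No list of the input samples was used, so it was not tested whether input chromatin is also enriched there. It was also not tested whether reads from the transgene, which carries dpy-20+, map to either sharp-edged member.

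The other members among the 10 best-ranked combined ones found in all 3 replicates had combined ranks of 39 to 176, and 5 of them are given next. The region at 11592847 to 11594567 had rank 39 and ranks 244, 76 and 649 in replicates 1, 2 and 3, where it was split into 3, 1 and 2 regions. At 8431386 to 8433191, rank 74, the replicate ranks were 105, 176 and 899. The member at 3134828 to 3135508 was the best-ranked of the left segment, at 142, with ranks 208, 298 and 409. In the right segment, the best-ranked member spanned 4672 bp from 17277136 to 17281807, with rank 86 and ranks of 288, 277 and 571. The region at 654647 to 655236 held rank 176 in the combined list and ranks 108, 68 and 73 in the replicates. For 8 of the 9 besides the widest member, replicate 3 gave the poorest rank of the 3, the exception being 654647 to 655236.

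Width did not always go with recovery. Of the 5 widest members, that at 13029687 to 13032256 (2570 bp, combined rank 1507) overlapped a region of replicate 1 only, at rank 2115. The member at 3131820 to 3134303 (2484 bp, rank 596) overlapped 3 regions of replicate 1 and 1 of replicate 2 and none of replicate 3. It is the left neighbour of the best-ranked member of the left segment, which was found in all lists. The member at 7389936 to 7392782 (2847 bp, rank 149) was found in all lists at ranks 1456, 597 and 1810.

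Few members were recovered in every replicate. Of the 901 members, 144 (16.0%, exact 95% interval 13.6 to 18.5%) overlapped a region in all 3 replicates by at least 1 bp, while 29.5% of all combined regions did so. Another 251 members were found in 2 replicates, 254 in 1 and 252 in none. The 45 members taken from replicate 1 overlap that list by construction, so the share in none is given for the combined list alone, at 29.4% of the 856, while 24.4% of all combined regions were found in none. Also in the combined list alone, the share in all 3 was 14.6% outside the domains (125 of 856), 15.2% inside them (55 of 362) and 31.8% on the other chromosomes (2423 of 7618). The exact 95% intervals were 12.3 to 17.1% outside and 11.7 to 19.3% inside, so these shares were not told apart, while both lay below the 30.8 to 32.9% of the other chromosomes. The intervals cover counting error only, and regions of 1 list are not independent, so no test was made.

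Presence over the replicates was nested in all parts of the genome. Among the 856 members of the combined list, 233 were found in 2 replicates, of which 232 lacked replicate 3 and 1 lacked replicate 2. On the other chromosomes 1629 of 1707 such regions (95.4%) lacked replicate 3, and in the domains all 87 did. Of the 246 of these members found in 1 replicate, 236 (95.9%) were in replicate 1 and 10 in replicate 2, against 77 of 79 in replicate 1 in the domains and 1566 of 1727 (90.7%) on the other chromosomes. Over all 901 members, median width was 569.5 bp among members seen in all 3 lists, 477 bp in 2, 446 bp in 1 and 308 bp in none. Their ranks followed the same order: the median member found in all 3 stood at 8.69% of its list counted from the best, and the median member found in none at 82.5%.

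**Figure D3:**
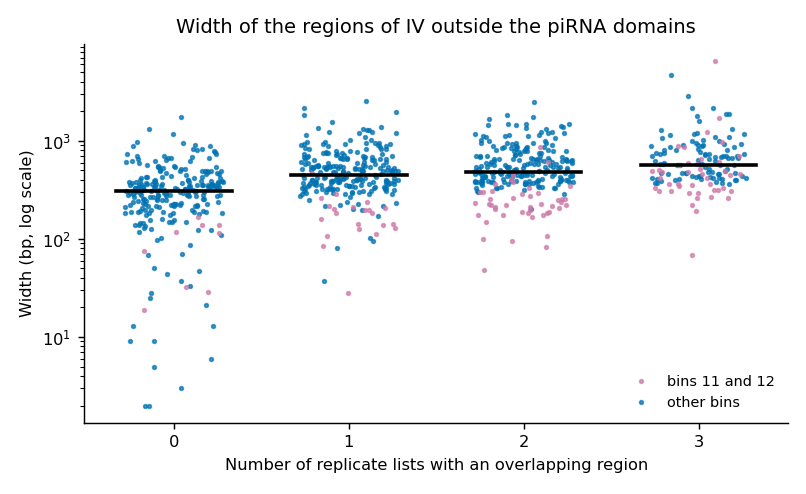
Width in bp on a log scale (y axis) of each of the 901 members (points) by the number of replicate lists with an overlapping region (x axis), with bars at the medians of 308, 446, 477 and 569.5 bp for 0, 1, 2 and 3 lists. Members of bins 11 and 12, from 10 to 12 Mb, are marked apart, with a median width of 254 bp over all classes.

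Replicate lists were set against each other to leave the combined list out. Of the 651 regions of replicate 1 outside the domains, 148 (22.7%, exact 95% interval 19.6 to 26.1%) were found in replicate 3, where 40.4% of all replicate 1 regions were found. The share was 24.7% in the domains (55 of 223) and 42.9% on the other chromosomes (2545 of 5931). In replicate 2, 61.4% of the 651 were found, with 68.9% for the whole list, 64.6% in the domains and 69.9% on the other chromosomes. In the other direction, 99.3% of the 147 regions of replicate 3 outside the domains were found in replicate 1, against 100% of 55 in the domains and 99.3% of 2601 on the other chromosomes. In replicate 2, 98.6% of the 147 were found, against 100% in the domains and 96.6% on the other chromosomes, so these shares were much alike in all parts.

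Measured by number, replicate 3 listed 22.6% as many regions as replicate 1 outside the domains, 24.7% in the domains and 43.9% on the other chromosomes. Relative to the other chromosomes, the density outside the domains was 80.5% in replicate 1, 69.6% in replicate 2 and 41.4% in replicate 3. The 10 to 12 Mb stretch departed from this, at 78.0%, 93.1% and 73.1% of the density of the other chromosomes. Without it the values were 81.0%, 64.6% and 34.6%. The stretch held 46 of the 147 regions of replicate 3 outside the domains, in 2 of the 11.3 Mb. Its share of replicate 1 regions found in replicate 3 was 40.2% (45 of 112), against 19.1% (103 of 539) on the rest of IV outside the domains.

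Regions of like rank were then compared, with the whole replicate 1 list split by rank into 4 classes of 25%. In the best 25%, 80.9% of the 157 regions outside the domains were found in replicate 3 (exact 95% interval 73.9 to 86.7%), against 70.0% of 60 in the domains and 95.4% of 1484 on the other chromosomes. In the next class 18 of 150 were found (exact 95% interval 7.27 to 18.3%) outside the domains, against 22.6% of 53 in the domains and 56.1% of 1498 on the other chromosomes. In the class after it the shares were 1.01% of 199 outside, 0 of 54 in the domains, which allows a share of up to 5.56%, and 16.1% of 1448 on the other chromosomes. In each of these 3 classes the share found in replicate 3 was lower on both parts of IV than on the other chromosomes. With ranks matched, the 10 to 12 Mb stretch lay close to the rest of IV outside the domains, at 83.0% against 80.0% in the best class and 17.9% against 10.7% in the next, with intervals that overlapped. The stretch had 67.0%, 46.9% and 41.3% of its regions in the better-ranked 50% of replicates 1, 2 and 3, against 43.0%, 42.2% and 45.5% on the rest, so it was ahead in replicates 1 and 2 and behind in replicate 3.

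**Figure D4:**
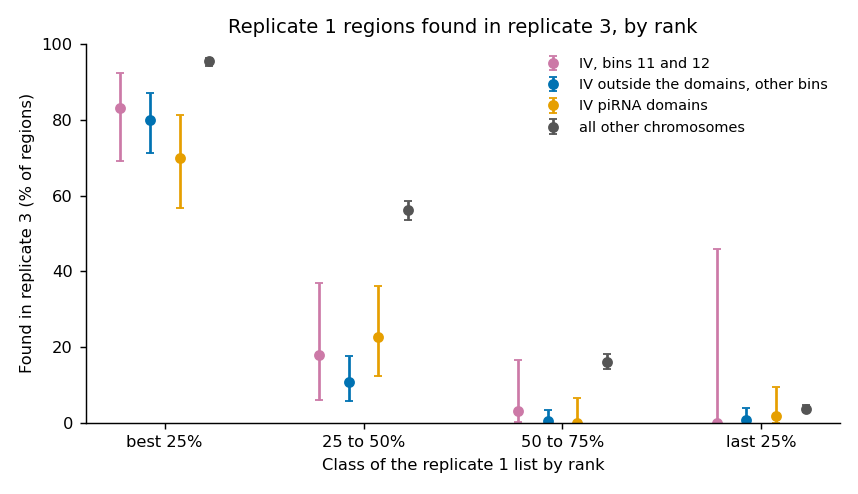
Share of replicate 1 regions found in replicate 3 by at least 1 bp (y axis, percent, with exact 95% intervals) by 25% class of the replicate 1 list by rank (x axis), for the stretch from 10 to 12 Mb of IV (bins 11 and 12), the rest of IV outside the domains, the domains and all other chromosomes. In the best class the shares are 83.0%, 80.0%, 70.0% and 95.4%.

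By rank, the members were spread through the whole of each list. In the replicate lists 47.2%, 43.3% and 44.2% of regions outside the domains fell in the better-ranked 50% of replicates 1, 2 and 3, against 50.7%, 49.3% and 38.2% in the domains and 50.3%, 50.6% and 50.6% on the other chromosomes. The share was lower than on the other chromosomes in 3 of 3 lists, with a mean difference of -5.59 ± 2.19 percentage points (SD, n = 3, exact permutation p = 0.25). Against the domains the signs were mixed, with a mean difference of -1.15 ± 6.35 points (exact permutation p = 1.0). In the combined list the share turned to 52.2%, against 49.9% on the other chromosomes. Without 10 to 12 Mb it was 49.8%, while 77.3% of the 75 combined regions from 11 to 12 Mb were in the better-ranked 50%. The 100 best-ranked regions of replicates 1, 2 and 3 included 5, 5 and 3 outside the domains, of which 5, 4 and 2 lay from 10 to 12 Mb. Regions outside the domains made up 9.57%, 8.41% and 5.24% of the whole lists. Those from 10 to 12 Mb made up 1.65%, 2.00% and 1.64%.

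Neighbouring members lay a median of 5.27 kb apart, with quartiles of 1.59 and 16.0 kb, and 259 of 898 gaps (28.8%) were at most 2 kb. In the replicate lists the share of gaps of at most 2 kb was 20.2%, 10.7% and 4.17% outside the domains in replicates 1, 2 and 3. It was 19.5%, 11.6% and 5.66% inside them, and 26.4%, 20.0% and 12.3% on the other chromosomes. The share was below that of the other chromosomes in all 3 lists, with a mean difference of -7.86 ± 1.56 points (SD, n = 3, exact permutation p = 0.25), and did not differ in a fixed direction from that of the domains (mean -0.549 ± 1.17 points, exact permutation p = 0.5). Density and spacing are not separate measures, since a sparser list has fewer close neighbours.

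When members at most 2 kb apart were joined, 469 of the 901 remained single, 116 formed pairs, 38 formed runs of 3, 14 runs of 4, and 5 runs were longer. The longest held 9 members over 14689 bp, from 2989788 to 3004476 in the left segment, and 2 of these were found in all 3 replicates. The next held 6 members from 17277136 to 17288208, beginning with the best-ranked member of the right segment. The longest stretches with no member ran from 12854976 to 12999971 (145 kb), from 3875882 to 4007356 (131 kb) and from 10527919 to 10650286 (122 kb). No replicate had a region inside any of them.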

How the data were processed

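The deposited lists give start and end positions and, in the score column, the p-value or q-value of PeakSeq for each region, with WormBase WS220 as the genome, per the file headers. How reads were aligned, which thresholds the caller used and how the combined list was pooled is not given in the sources used here. Regions were ranked by this value and, where tied, by peak number. Positions count from 1 with both ends included. Spans run from the start of a chromosome to the last region in any list. Gaps were taken within a segment of IV.

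Overlap meant at least 1 bp. For a member split in a replicate, its best-ranked part gave the rank. Values of the replicate lists were compared by the exact two-sided sign-flip permutation test over 3 paired lists, with Benjamini-Hochberg adjustment over 8 planned comparisons. Shares have exact (Clopper-Pearson) 95% intervals. The limit given for a share with a count of 0 is instead 3 divided by the number of regions, a little below the exact limit. Members, comparisons and the named regions (best-ranked, widest, nearest the edges, longest gaps) were chosen with earlier results of these data known. The 10 to 12 Mb stretch was chosen after its values were seen. Alternatives covered the overlap rule, list size, single segments, gap limits and leaving out each replicate. On simulated data, 2748 of 2750 planted overlaps in 6805 regions were recovered, and overlap counts had 0 differences from bedtools 2.31.1. Tools were matplotlib 3.10.9, SciPy 1.17.1, pandas 2.3.3, numpy 2.4.6 and Python 3.11.15.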

Additional observations from a re-analysis of the deposited data

How the results depend on the processing

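No paired analysis was possible because the input samples, which share replicate numbers with the ChIP samples, have no list among the files used here. The pairs in the sign-flip tests are parts of the genome within 1 ChIP list. Of 95 alternative values, 13 turned sign and 13 without a test moved past their spread or interval. The other 69 kept their direction but not always their size. Without 10 to 12 Mb the width difference was -22.0 bp against the domains and 33.7 bp against other chromosomes. With each list cut to its 2803 best-ranked regions, the density difference to the domains averaged 4.64 regions per Mb. Cutting a list lowers its regions per Mb, so this value is not evidence of a weaker contrast. Replicate 3, whose length did not change, had a difference of 4.17. In the combined list without 10 to 11 Mb, differences were 24.98 (density, against the domains) and -8.85 (density, against other chromosomes) regions per Mb, -17.5 bp (width, domains) and -3.51 points (close neighbours, other chromosomes), and 3 turned sign: 2.08 points (close neighbours, domains), 4.71 points (better-ranked 50%, domains) and 2.35 points (better-ranked 50%, other chromosomes). The width difference to other chromosomes turned sign without a replicate (range -1.0 to 8.5 bp), at -18.7 bp with equal numbers of best-ranked regions, -19.5 bp in the better-ranked 50% and -21.5 bp between the domains. The close-neighbour difference to the domains was 0.046 points between the domains and 0.255 points with gaps of at most 5 kb. The better-ranked difference to the domains was between -4.75 and 1.26 points without a replicate, and 1.06 points with equal numbers.

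Members found in all remaining replicates ranged from 16.0% to 43.6%, highest without replicate 3, and were 28.0% in the better-ranked 50%, 22.4% for replicate 1 in place of the combined list and 12.9% without 10 to 12 Mb. The share of replicate 1 found in replicate 3 was 58.1% with equal numbers (52.5% in the domains, 83.5% on other chromosomes) and 19.1% without 10 to 12 Mb. For replicate 2 it was 56.5% at 50% reciprocal overlap, 74.6% with equal numbers and 57.5% without 10 to 12 Mb. The cause was not tested. The sign-flip test over 3 lists cannot pass 0.05, and depth is unknown.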

Other observations

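The narrow stretch of IV had counterparts on other chromosomes. Of the 102 bins of 1 Mb with at least 5 regions in each replicate list, 4 had a median width under 340 bp in all 3, a limit chosen after the values were seen. Besides the bins of IV from 10 to 11 and 11 to 12 Mb, these were II from 11 to 12 Mb, with 272, 282 and 288 bp in replicates 1, 2 and 3, and I from 7 to 8 Mb, with 298, 298 and 338 bp. The bin of X from 7 to 8 Mb lay just past the limit, with 277, 287 and 341 bp. In the replicates, the bins on both sides of the II bin had medians between 352 and 434 bp, and those beside the I bin between 398 and 450 bp. The bins of II and I were not short of regions, with 96, 77 and 50 regions on II and 100, 78 and 42 on I. In the combined list both were filled, with 109 regions (median 280 bp) on II and 132 (median 296 bp) on I, so the empty megabase of IV was the only 1 of the 4 without combined regions.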
